A study of Mus musculus with 30 samples.

Results

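The transcripts of 9 genes that mark arterial or venous endothelial cells (ECs) were followed in adult mouse brain ECs before and after culture. The arterial genes were Efnb2, Bmx, Gja4, Gja5 and Gkn3, and the venous genes were Nr2f2, Ephb4, Slc38a5 and Lcn2. They were taken as a list of names, with no threshold on a measured value, and all 9 were found among the 21820 protein-coding genes of the deposited tables.

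RNA-seq was done on 14 libraries and ATAC-seq on 10, all from adult male mice. Acutely isolated ECs (2 RNA-seq and 2 ATAC-seq libraries) came from Tie2-GFP mice, in which the Tie2 promoter drives GFP in ECs, by a sort for GFP, and the GFP-negative cells of the same mouse line gave 2 RNA-seq libraries. The study states that its adult brain ECs combine new data from cerebrum with data from cerebellum published earlier. The titles of these libraries name the brain only, so the part of brain region was not tested. WT cultures (6 RNA-seq and 6 ATAC-seq libraries) were brain ECs purified with puromycin and grown for 8 days, from C57BL/6J mice for replicates 1 and 2 and from Ctnnb1flex3/+;Tie2-GFP mice for replicates 3 to 6. Beta-catenin stabilized cultures (4 RNA-seq and 2 ATAC-seq libraries) were grown in the same way from Ctnnb1flex3/+;Pdgfb-CreER;Tie2-GFP mice, in which the Pdgfb promoter drives an inducible Cre in ECs that removes exon 3 of Ctnnb1. Both the Cre-positive mice and their Ctnnb1flex3/+;Tie2-GFP controls had received 4-hydroxytamoxifen as pups. RNA-seq replicates 1 and 2 of both kinds of culture and ATAC-seq WT replicates 1 and 2 were isolated by method A (papain digestion), and all other cultures, both stabilized ATAC-seq libraries included, by method B (homogenization and collagenase). These assignments follow the study's methods section, whose grouping matches the mouse strains in the labels. A figure legend of the study can be read to place RNA-seq WT replicates 5 and 6 in method A, so the method of these 2 libraries is less certain. WT replicates 3 and 4 were prepared by another facility and read for 150 cycles, the other cultures for 36 cycles from both ends, and the acutely isolated cells for 75 cycles from 1 end. Each culture pooled several mice, and its replicates are wells, 2 from each experiment, so that p-values across wells measure in part technical spread. Read format and culture cannot be told apart, and neither can experiment, facility, method and mouse strain among the WT cultures. The record of stabilized replicate 4 of RNA-seq names a genomic source, and it was kept with its title.

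Total counts ran from 24284843 to 94686456 per RNA-seq library. The share of the deposited TPM that falls on protein-coding genes differed between libraries, from 36.2% to 51.3% in 10 libraries, 61.5% and 64.9% in stabilized replicates 1 and 2, and 94.8% and 94.7% in WT replicates 3 and 4. Levels are therefore given as protein-coding TPM, which is the deposited TPM rescaled so that protein-coding genes sum to the same total in every library. The summed level of 12 general EC markers was 9480 to 9730 protein-coding TPM in acutely isolated ECs, 5100 to 12700 in WT cultures, 6690 to 12100 in stabilized cultures and 225 to 257 in GFP-negative cells, so the sum set the EC groups apart from GFP-negative cells. Single markers did not all hold their level in culture. By the edgeR test described below, Flt1 (log2 fold change −4.54), Kdr (−3.50), Tek (−3.38) and Cldn5 (−1.97) were called lower in WT cultures than in acutely isolated ECs. Emcn (2.83), the top gene of the sum in WT cultures at a mean of 2840, was called higher, and the other markers were not called. The acutely isolated ECs also held 13100 to 80100 protein-coding TPM of 5 erythrocyte markers and 1140 to 1320 of 8 pericyte markers, against 0.0 to 2.42 and 5.71 to 30.1 in the cultures.

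Ephrin-B2, the transmembrane ligand encoded by Efnb2, is a classical marker of arteries, and its receptor EphB4 is a classical marker of veins. Notch signaling holds ECs in the arterial state, and the nuclear receptor COUP-TFII, encoded by Nr2f2, holds them in the venous state. In the adult brain most ECs are capillary ECs, so that bulk RNA from brain ECs carries arterial and venous transcripts as a minor share. In such samples fewer cells of a type and less RNA per cell cannot be told apart.

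Open chromatin near these genes differed between acutely isolated ECs and cultures at a few discrete regions, of which 7 are shown here for their contrast with the transcript levels that follow. All coordinates are those of GRCm38.p6. The 250 bases upstream of the Gkn3 start (RefSeq, chr6:87388936-87389185, on the gene's minus strand) were covered by a peak in both acutely isolated libraries and in none of the 8 cultures, and Gkn3 transcripts followed the same course. The other 6 sequences are the 300 bases around a peak summit, on the plus strand. Those of Slc38a5 (chrX:8260676-8260975, upstream of the gene) and Bmx (chrX:164256116-164256415, in an intron) were open only in acutely isolated ECs. Those of Efnb2 (chr8:8644214-8644513, in an intron), Gja4 (chr4:127308130-127308429, downstream of the gene), Gja5 (chr3:97006131-97006430, in an intron) and Nr2f2 (chr7:70358895-70359194, overlapping a transcript's exon outside its UTRs) were open in all 8 cultures and in neither acutely isolated library. Capitals mark matches, on either strand, to TGGGAA (the motif of RBPJ, which mediates Notch signaling), CTTTGAT or CTTTGTT (TCF/LEF, which mediate beta-catenin signaling), TGANTCA (AP-1) and CACGTG (the E-box bound by HEY factors).
Gkn3 promoter: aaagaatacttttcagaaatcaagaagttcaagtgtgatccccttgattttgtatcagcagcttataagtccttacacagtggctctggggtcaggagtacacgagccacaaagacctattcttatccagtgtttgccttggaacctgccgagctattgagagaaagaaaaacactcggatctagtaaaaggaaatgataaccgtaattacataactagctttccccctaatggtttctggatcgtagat
Slc38a5 upstream, acute only: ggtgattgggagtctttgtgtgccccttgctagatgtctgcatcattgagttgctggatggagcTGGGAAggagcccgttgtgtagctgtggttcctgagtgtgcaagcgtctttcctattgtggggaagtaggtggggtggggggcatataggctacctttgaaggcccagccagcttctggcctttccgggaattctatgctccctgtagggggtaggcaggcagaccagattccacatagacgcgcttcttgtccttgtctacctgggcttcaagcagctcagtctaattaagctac
Bmx intron, acute only: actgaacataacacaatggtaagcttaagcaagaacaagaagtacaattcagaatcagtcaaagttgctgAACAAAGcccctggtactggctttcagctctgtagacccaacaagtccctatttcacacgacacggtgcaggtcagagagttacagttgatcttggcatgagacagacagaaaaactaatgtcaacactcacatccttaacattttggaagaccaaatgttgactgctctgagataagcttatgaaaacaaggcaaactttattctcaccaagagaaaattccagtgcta
Efnb2 intron, culture only: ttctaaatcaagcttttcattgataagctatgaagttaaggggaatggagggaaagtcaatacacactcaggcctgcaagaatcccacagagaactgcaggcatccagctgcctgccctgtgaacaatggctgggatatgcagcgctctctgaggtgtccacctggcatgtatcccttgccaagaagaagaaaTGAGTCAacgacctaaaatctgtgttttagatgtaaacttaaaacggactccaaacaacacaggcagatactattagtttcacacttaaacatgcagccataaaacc
Gja4 downstream, culture only: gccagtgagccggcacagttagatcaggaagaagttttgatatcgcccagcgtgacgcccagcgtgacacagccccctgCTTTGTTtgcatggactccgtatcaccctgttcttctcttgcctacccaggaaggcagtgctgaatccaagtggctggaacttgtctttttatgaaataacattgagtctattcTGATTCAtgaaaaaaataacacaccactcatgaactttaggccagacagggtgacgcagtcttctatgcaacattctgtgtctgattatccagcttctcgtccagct
Gja5 intron, culture only: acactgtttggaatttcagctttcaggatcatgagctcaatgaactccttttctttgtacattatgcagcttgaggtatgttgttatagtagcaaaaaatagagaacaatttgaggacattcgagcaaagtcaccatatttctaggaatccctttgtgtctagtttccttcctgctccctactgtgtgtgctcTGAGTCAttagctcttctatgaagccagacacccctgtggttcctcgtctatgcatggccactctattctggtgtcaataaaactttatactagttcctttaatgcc
Nr2f2 exon, culture only: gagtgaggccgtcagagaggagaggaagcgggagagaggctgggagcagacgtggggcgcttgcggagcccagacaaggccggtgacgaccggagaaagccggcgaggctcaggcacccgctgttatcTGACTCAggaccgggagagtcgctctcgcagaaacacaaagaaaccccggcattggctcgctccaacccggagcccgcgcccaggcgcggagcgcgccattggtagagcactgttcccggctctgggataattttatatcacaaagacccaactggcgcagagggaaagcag

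In acutely isolated ECs the members were ordered, from the highest mean level to the lowest, as Slc38a5, Gkn3, Gja4, Lcn2, Ephb4, Efnb2, Bmx, Nr2f2 and Gja5. In WT cultures the order was Lcn2, Efnb2, Ephb4, Gja5, Gja4, Nr2f2, Bmx, Slc38a5 and Gkn3, so that the 2 most abundant members of acutely isolated ECs by TPM became the 2 least abundant. TPM divides by effective length, which for Gkn3 was 250 bases in acutely isolated ECs and 807 to 936 in WT cultures. By counts Gkn3 (1406 to 2803) lay below Efnb2 (5028 to 13519) and Ephb4 (6463 to 10987) in acutely isolated ECs. Effective lengths of Lcn2, Gja4 and Slc38a5 were also shorter there than in WT cultures. The stabilized cultures had the same first 4 and last 2 members as the WT cultures, with Bmx, Nr2f2 and Gja4 between them.

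**Figure D1:**
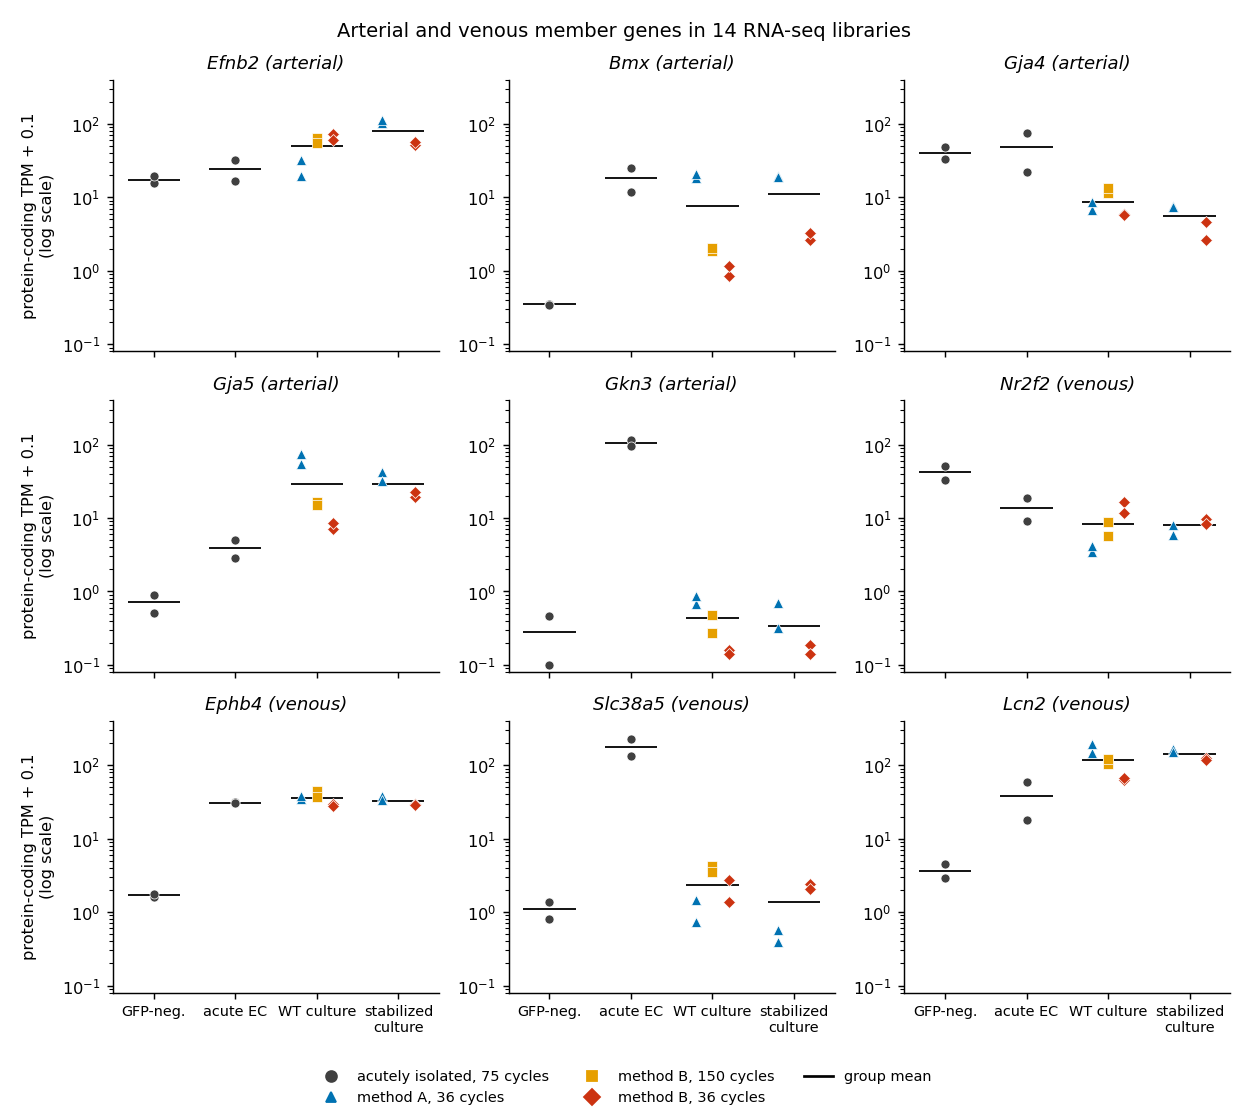
Protein-coding TPM plus 0.1 (log axis) of each member in the 14 RNA-seq libraries, 1 panel a gene, with 1 point a library, colour and shape for isolation method and read cycles, and a line at the group mean. Gkn3 and Slc38a5 stood far above every culture in both acutely isolated libraries, Gja5 and Lcn2 stood below every culture there, and Bmx fell into a high and a low set of cultures.

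The arterial ligand Efnb2 (chr8:8617434-8661242) was measured at 32.4 and 16.4 protein-coding TPM in acutely isolated ECs, at 19.2 to 71.8 (median 57.1, n = 6) in WT cultures, at 102, 114, 50.8 and 57.3 in stabilized cultures and at 15.4 and 19.3 in GFP-negative cells. Each neighbouring pair of groups overlapped, and the highest libraries were stabilized replicates 1 and 2. The GFP-negative libraries lay within or just below the range of acutely isolated ECs, and Efnb2 did not pass the test between them by counts (log2 fold change 0.98, SE 0.431, edgeR adjusted p = 0.142).

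Bmx (chrX:164192842-164258193), which encodes a tyrosine kinase of the Tec family found in arterial endothelium, was measured at 11.7 and 24.7 protein-coding TPM in acutely isolated ECs, at 0.760 to 21 (median 1.85, n = 6) in WT cultures, at 19.4, 18.6, 2.55 and 3.22 in stabilized cultures and at 0.255 and 0.244 in GFP-negative cells. The cultures fell into a high set and a low set. Replicates 1 and 2 of both kinds of culture (method A) lay at 18.1 to 21, within the range of acutely isolated ECs, and the other 6 (method B) lay at 0.760 to 3.22. This split follows the method only if WT replicates 5 and 6, the 2 lowest, were isolated by method B.

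The connexins Gja4 (chr4:127311421-127314039) and Gja5 (chr3:96904693-97077416) form gap junctions between arterial ECs. Gja4 was measured at 75.3 and 22.3 protein-coding TPM in acutely isolated ECs, at 5.72 to 13.3 (median 7.65, n = 6) in WT cultures, at 7.60, 7.26, 2.51 and 4.59 in stabilized cultures and at 33.3 and 47.7 in GFP-negative cells. All 10 cultures lay below all 4 acutely isolated libraries, GFP-negative ones included. The 8 pericyte markers moved with this gene, at 841 to 1620 summed protein-coding TPM in GFP-negative cells and 1140 to 1320 in acutely isolated ECs against 5.71 to 30.1 in cultures, and their part in its level was not tested. Gja5 was measured at 2.73 and 4.90 in acutely isolated ECs, at 6.98 to 73.4 (median 15.6, n = 6) in WT cultures, at 41.9, 32.1, 19.2 and 22.4 in stabilized cultures and at 0.416 and 0.806 in GFP-negative cells. Every culture lay above both acutely isolated EC libraries, the reverse of Gja4. The log2 ratio of Gja5 to Gja4 within a library (deposited TPM + 0.1) was −4.67 and −2.14 in acutely isolated ECs and was positive in every culture, at 0.17 to 3.05 in WT cultures and 2.12 to 2.82 in stabilized cultures.

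Gkn3 (chr6:87383256-87388935) encodes a secreted protein of the gastrokine family and marks arterial ECs of the mouse brain. It was measured at 117 and 94.7 protein-coding TPM in acutely isolated ECs, at 0.0386 to 0.773 (median 0.278, n = 6) in WT cultures, at 0.607, 0.220, 0.0861 and 0.0408 in stabilized cultures and at 0.363 and 0.0 in GFP-negative cells. No culture or GFP-negative library came near the acutely isolated ECs. The counts behind these levels were 1406 and 2803 in acutely isolated ECs and 1 to 12 in the cultures, so levels among the cultures rest on few counts, and Gkn3 was left out of most tests among them. A count of 0 in GFP-negative replicate 2 allows up to 0.0868 deposited TPM, which covers counting error only.

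Nr2f2 (chr7:70351944-70366735), the venous transcription factor, was measured at 8.97 and 18.6 protein-coding TPM in acutely isolated ECs, at 3.37 to 16.5 (median 7.07, n = 6) in WT cultures, at 5.79, 7.92, 9.53 and 8.13 in stabilized cultures and at 32.8 and 50.9 in GFP-negative cells. It was the only member whose highest group was the GFP-negative cells, and both of those libraries lay above all others. The 3 EC groups overlapped.

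Ephb4 (chr5:137350109-137378669), the receptor of ephrin-B2, had the smallest ratio between the highest and the lowest WT experiment of any member per length of transcript. It was measured at 31.0 and 30.5 protein-coding TPM in acutely isolated ECs, at 27.4 to 44.8 (median 35.9, n = 6) in WT cultures, at 37.9, 33.7, 29.8 and 28.6 in stabilized cultures and at 1.52 and 1.68 in GFP-negative cells. The means were 30.8 ± 0.361 (SD, n = 2), 35.3 ± 6.35 (n = 6) and 32.5 ± 4.23 (n = 4) in the 3 EC groups, which differed by less than the spread within the WT cultures. The log2 ratio of Efnb2 to Ephb4 on the same scale, ligand to receptor, was 0.06 and −0.89 in acutely isolated ECs, −0.86 to 1.28 in WT cultures and 0.76 to 1.76 in stabilized cultures.

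Slc38a5 (chrX:8271133-8280179), a sodium-coupled transporter of neutral amino acids, was measured at 224 and 132 protein-coding TPM in acutely isolated ECs, at 0.641 to 4.08 (median 2.0, n = 6) in WT cultures, at 0.463, 0.289, 2.31 and 1.99 in stabilized cultures and at 0.707 and 1.28 in GFP-negative cells. The cultures overlapped with GFP-negative cells and lay far below acutely isolated ECs. The group means were 178 ± 65.2 (SD, n = 2) in acutely isolated ECs and 2.23 ± 1.35 (n = 6) in WT cultures. Slc38a5 was the most abundant member in acutely isolated ECs, and its counts of 7225 and 20209 there set against 12 to 158 in the cultures.

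Lcn2 (chr2:32384633-32388252), a secreted lipocalin that binds siderophores and that neutrophils also make, was measured at 58.1 and 17.9 protein-coding TPM in acutely isolated ECs, at 62.2 to 194 (median 114, n = 6) in WT cultures, at 166, 152, 124 and 119 in stabilized cultures and at 4.38 and 2.79 in GFP-negative cells. All cultures lay above both acutely isolated EC libraries. The summed level of 12 neutrophil markers went the other way, at 5.04 to 19.1 in acutely isolated ECs, 0.557 to 2.70 in cultures and 99.3 to 148 in GFP-negative cells, and 11 of the 12 stayed below 1 in every WT culture.

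The first comparison asked how 8 days of culture changed these genes, with 6 WT cultures set against 2 acutely isolated EC libraries. A gene was called where the adjusted p of edgeR's quasi-likelihood test was under 0.05, the change was over 2-fold and the deposited TPM was at least 5 in every library of the higher group. Among 13784 genes tested, 13.5% were called higher and 10.2% lower in culture. Of the 9 members 0 were called higher and 4 were called lower, namely the arterial genes Gkn3 and Gja4 and the venous genes Slc38a5 and Ephb4. The log2 fold change of Gkn3 was −8.03 (SE 0.774, adjusted p = 0.000156), and that of Slc38a5 was −6.77 (SE 0.673, adjusted p = 0.000180). Gja4 fell by 3.37 (SE 0.467, adjusted p = 0.000782), but its call was lost with limma on log2(deposited TPM + 1), where the change was −1.83 (adjusted p = 0.0871).

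Ephb4 was called lower by counts (log2 fold change −1.04, SE 0.256, adjusted p = 0.0105), but it passed the test on no scale that divides by transcript length. The change was −0.18 with an offset for effective length, 0.41 by limma on log2(deposited TPM + 1) and 0.17 on protein-coding TPM. Salmon placed Ephb4 reads on different transcripts in the 2 kinds of library. In acutely isolated ECs 75.6% of its TPM lay on Ephb4-205 and 10.6% on Ephb4-201, whereas 91.8% lay on Ephb4-201 in WT cultures and 0.0% on Ephb4-205 in any culture. The mean effective length was 3565 to 3687 bases in acutely isolated ECs, 2964 to 4943 in WT cultures and 4792 to 5022 in stabilized cultures, and read format moved with it. The part of read format in these assignments was not tested.

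Nr2f2 fell by 2.25 (SE 0.584, adjusted p = 0.0132) and passed the test on p and fold, but it was not called because its deposited TPM was 3.74 in acutely isolated replicate 1, below the minimum of 5. With the minimum set on protein-coding TPM, Nr2f2 was called lower. Per length its change was smaller, at −0.48 on log2(deposited TPM + 1).

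The other 4 members did not pass the test. Efnb2 changed by −0.47 (SE 0.534, adjusted p = 0.501) by counts, and its sign turned with the scale, to 0.64 with the length offset and 0.96 on protein-coding TPM. Bmx changed by −2.25 (SE 1.127, adjusted p = 0.132), with a spread between method A and method B cultures that was wider than the difference from acutely isolated ECs. Gja5 changed by 1.63 (SE 0.914, adjusted p = 0.172) and Lcn2 by 1.09 (SE 0.582, adjusted p = 0.155), in both cases with every culture above both acutely isolated libraries in protein-coding TPM. Lcn2 was called higher when acutely isolated replicate 1, the library with the higher Lcn2 level, was left out (log2 fold change 2.44, adjusted p = 0.0295). Leaving out the same library ended the call of Ephb4 (−0.85, adjusted p = 0.0650), as did leaving out WT replicate 4, where the change was −0.98 and thus under 2-fold. Scaling by library size in place of TMM moved the median change of all genes by 0.208 and that of Ephb4 to −0.81, also under 2-fold.

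**Figure D2:**
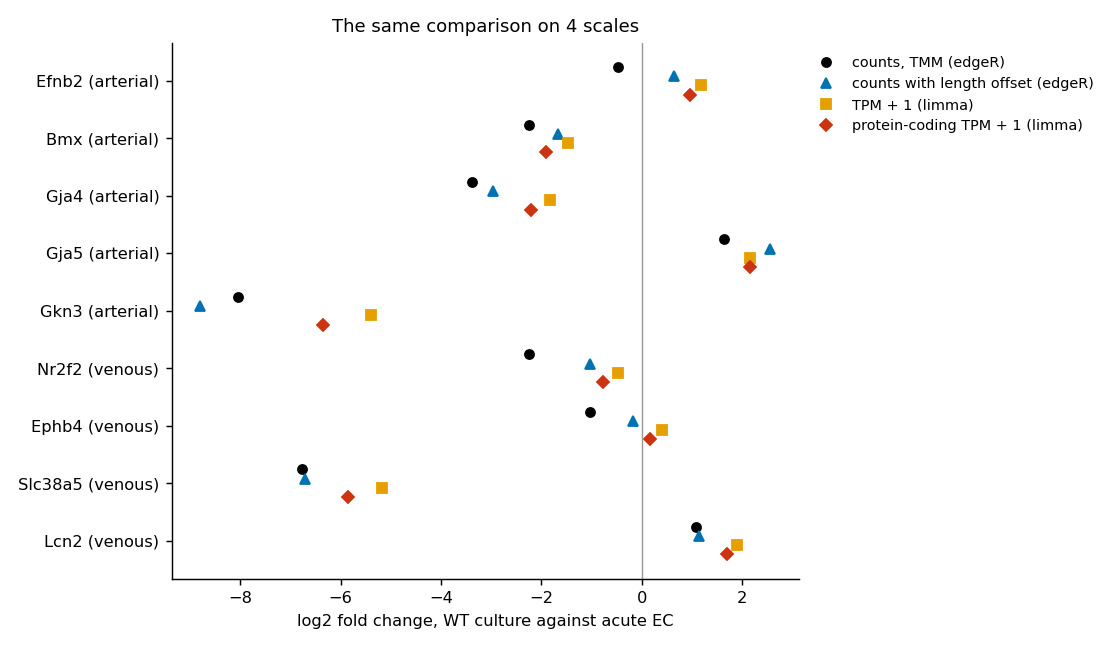
Log2 fold change of each member in WT culture against acutely isolated ECs, from edgeR on counts, edgeR with an offset for effective length, limma on log2(deposited TPM + 1) and limma on log2(protein-coding TPM + 1), 1 symbol a scale. Gkn3, Slc38a5, Gja4, Bmx and Nr2f2 were lower and Gja5 and Lcn2 higher on all 4 scales, whereas Efnb2 and Ephb4 lay on both sides of 0.

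Stabilized cultures were set against the same 2 acutely isolated libraries, so this comparison and the one before it share their control samples and are given side by side. Among 13888 genes 15.1% were called higher and 11.0% lower. Of the 9 members 1 was called higher and 4 lower. Gja5 rose by 1.51 (SE 0.301, adjusted p = 0.00567) in the stabilized cultures, where it had been 1.63 in the WT cultures. Gkn3 was at −8.65, Slc38a5 at −7.54, Gja4 at −3.99 and Ephb4 at −1.02, next to −8.03, −6.77, −3.37 and −1.04 in the WT cultures. Ephb4 again lost its call on every scale per length, with −0.41 under the length offset and 0.07 on protein-coding TPM, and also without acutely isolated replicate 1 (−0.82) or stabilized replicate 2 or 4 (−0.99 each). Nr2f2 was at −2.58 (adjusted p = 0.000713) and was kept from a call by the TPM minimum alone. Lcn2 was at 1.26 (adjusted p = 0.0757), and it was called at 2.63 (adjusted p = 0.000544) when acutely isolated replicate 1 was left out. Without acutely isolated replicate 1 Nr2f2 was called as well. Efnb2 was at 0.10 and Bmx at −1.86, and neither passed the test by counts, whereas Efnb2 was called higher on protein-coding TPM (1.68, adjusted p = 0.0229).

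The third comparison asked which members are enriched in ECs over other brain cells, with acutely isolated ECs set against GFP-negative cells. Among 15102 genes the share called was 8.30% for higher and 7.56% for lower levels in ECs. Of the 9 members 4 were called higher and 0 lower. Gkn3 was 440-fold higher by the fitted counts (log2 fold change 8.78, SE 1.39, adjusted p = 0.00749), a value that rests on 10 and 0 counts in the GFP-negative libraries. Slc38a5 was 183-fold (adjusted p = 0.00170), Ephb4 23.0-fold (adjusted p = 0.00186) and Lcn2 12.5-fold higher (adjusted p = 0.0296). Without acutely isolated replicate 1 the change of Lcn2 was 2.15 on the log2 scale (adjusted p = 0.109), and without GFP-negative replicate 2 it was 3.22 (adjusted p = 0.109).

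Bmx and Gja5 also passed on p and fold, at 6.47 (adjusted p = 0.00211) and 2.94 (adjusted p = 0.0215) on the log2 scale, and were not called because their deposited TPM in ECs fell under 5 in replicate 1 or in both. Bmx was called without that replicate. Gja4 (0.40, adjusted p = 0.693) and Efnb2 (0.98) did not separate ECs from other cells, except that Efnb2 was called at 1.41 (adjusted p = 0.0350) without acutely isolated replicate 2. Nr2f2 pointed the other way, at −1.09 (SE 0.343, adjusted p = 0.0583), and was called lower in ECs by DESeq2 (−1.15, adjusted p = 0.00958). The summed level of 8 smooth muscle markers was 425 to 569 protein-coding TPM in acutely isolated ECs, 1080 to 7550 in WT cultures and 8030 to 11400 in GFP-negative cells. In WT culture against acutely isolated ECs the markers split. Tagln (5.51), Cnn1 (4.15) and Acta2 (3.11) were called higher, Myh11 (−4.40) was called lower and the others were not called. The sum in cultures therefore does not stand for the whole list. The part of smooth muscle cells in the levels of Gja4, Efnb2 and Nr2f2 was not tested.

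**Figure D3:**
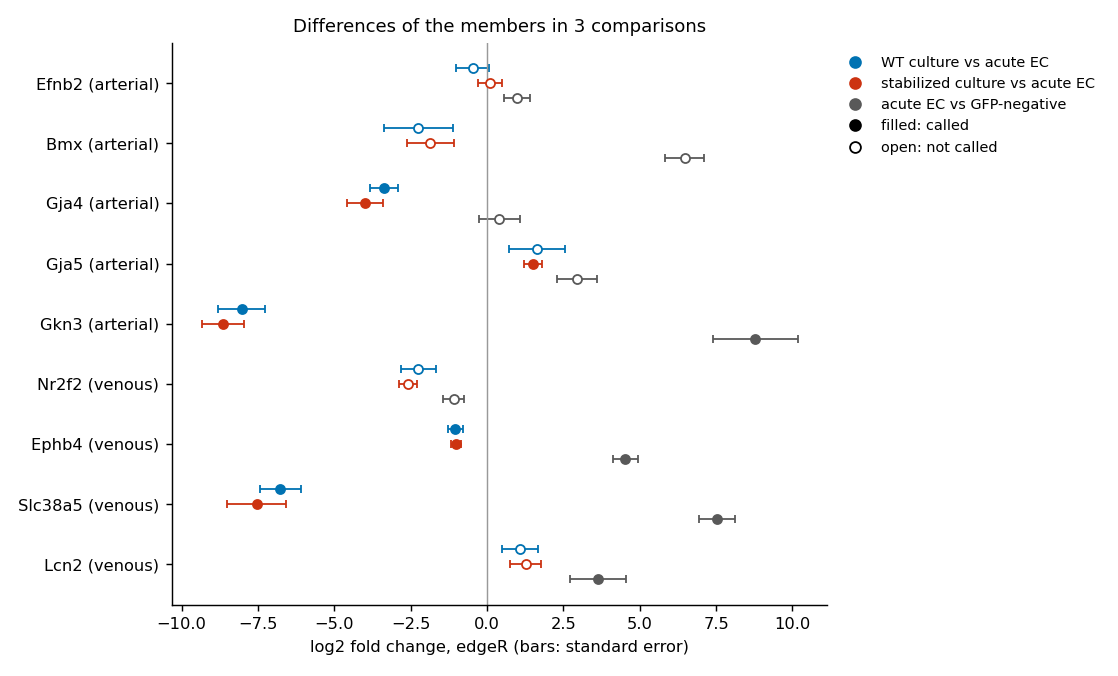
Log2 fold change with its standard error (bars) from edgeR for each member in WT culture against acutely isolated ECs, stabilized culture against acutely isolated ECs and acutely isolated ECs against GFP-negative cells, with filled points for called genes. Gkn3 and Slc38a5 had the largest differences in all 3 comparisons, and all 3 values of Nr2f2 lay below 0.

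The fourth comparison asked whether stabilized beta-catenin changed these genes in culture. Over all 4 stabilized and 6 WT cultures edgeR called 0% of 12958 genes in either direction, with 1344 at an unadjusted p under 0.05, and DESeq2 called 18. Of the 8 members tested 0 were called, 0 had an unadjusted p under 0.05, and DESeq2 called 0. Gkn3 was not tested because of its low counts. The log2 differences lay between −0.79 (Slc38a5, SE 0.755) and 0.56 (Efnb2, SE 0.387), and that of Ephb4 was 0.01 (SE 0.148). The errors were wide for Bmx (0.39, SE 0.999) and Gja5 (−0.12, SE 0.606), whose levels differed between the experiments pooled here.

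Within each isolation method the errors were smaller. Signs often differed between the methods, also for effects near 0. Over the settings, Bmx (−0.35 to −0.04), Lcn2 (−0.37 to −0.09) and Ephb4 (−0.30 to −0.04) had log2 fold changes of this kind in method A. How often signs differ over all genes was not counted. In method A, 2 stabilized wells were set against 2 C57BL/6J wells, which lack the Ctnnb1flex3 and Tie2-GFP alleles, so that stabilization, strain and experiment cannot be told apart. Of 12848 genes 5.39% were called higher and 0.918% lower, and of the 9 members 1 was called higher and 0 lower. Efnb2 stood at 102 and 114 protein-coding TPM in stabilized wells against 19.2 and 32.2 in WT wells, a rise of 2.03 on the log2 scale (SE 0.199, adjusted p = 0.000770). Gja5 went from 53.9 and 73.4 in WT wells to 41.9 and 32.1, a difference of −0.98 (SE 0.173, adjusted p = 0.00403) that fell just short of 2-fold. With scaling by library size it was −1.07 and was called. Slc38a5 differed by −1.52 (SE 0.480, adjusted p = 0.0338), at a TPM below the minimum for a call.

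In method B, 2 stabilized wells were set against the 2 WT wells of 36 cycles, which came from Ctnnb1flex3/+;Tie2-GFP mice and differ from them by the Pdgfb-CreER allele in the labels. The stabilized and the WT wells were separate cultures, 1 experiment each, so that stabilization and experiment cannot be told apart here either, and p-values across wells do not cover the spread between experiments. Of 12835 genes 1.08% were called higher and 0.280% lower, and of the 8 members tested 1 was called higher and 0 lower. Gja5 stood at 19.2 and 22.4 protein-coding TPM in stabilized wells against 6.98 and 8.53 in WT wells, a rise of 1.37 (SE 0.123, adjusted p = 0.00131). Bmx stood at 2.55 and 3.22 against 0.760 and 1.06 and differed by 1.65 (SE 0.211, adjusted p = 0.00312), but its TPM lay below the minimum for a call. By edgeR, Lcn2 differed by 0.87 (SE 0.0598, adjusted p = 0.000782), Nr2f2 by −0.85 (SE 0.175, adjusted p = 0.0143) and Efnb2 by −0.30 (SE 0.0884, adjusted p = 0.0421), all under 2-fold. Ephb4 differed by 0.05 in method B and −0.21 in method A and passed in neither.

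The difference between these 2 effects was tested in 1 edgeR fit over the 8 wells. It passed at an adjusted p under 0.05 for 6 of the 9 members, where 49.6% of all 13356 genes passed, so the count of members is near that background. Efnb2 and Nr2f2 had a lower effect in method B than in method A, and Bmx, Gja5, Slc38a5 and Lcn2 a higher effect.

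**Figure D4:**
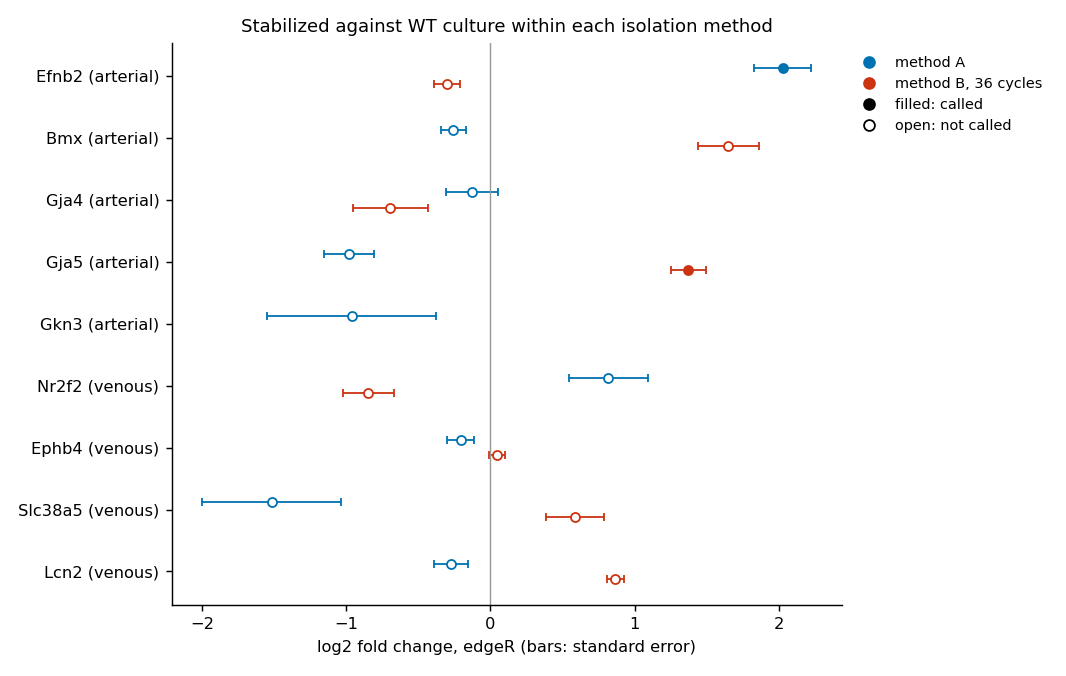
Log2 fold change with its standard error (bars) of each member in stabilized against WT culture, from edgeR within method A (2 against 2 wells) and within method B at 36 cycles (2 against 2 wells), with filled points for called genes. Efnb2 was called higher in method A and Gja5 in method B, several members had effects on opposite sides of 0, some of them near 0, and Gkn3 was tested in method A alone.

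The WT cultures themselves differed by experiment. All 8 members tested passed an edgeR test among the 3 experiments at an adjusted p under 0.05, as did 89.8% of 13050 genes. The ratio of the highest to the lowest experiment mean in protein-coding TPM was 21.5 for Bmx (19.5 in method A, 0.908 in method B at 36 cycles), 8.21 for Gja5, 3.76 for Nr2f2, 3.73 for Slc38a5, 2.64 for Lcn2, 2.56 for Efnb2, 2.16 for Gja4 and 1.44 for Ephb4. Wells of the same experiment differed by at most 2.12-fold for Slc38a5, 1.68-fold for Efnb2, 1.56-fold for Nr2f2, 1.39-fold for Bmx, 1.36-fold for Gja5, 1.31-fold for Lcn2, 1.3-fold for Gja4 and 1.22-fold for Ephb4. Gkn3 had an experiment ratio of 13.9 and a well ratio of 2.16 on counts of 1 to 10, and with no filter on low counts all 9 members passed. Bmx, Gja5 and Lcn2 were highest in method A, whereas Nr2f2 and Efnb2 were highest in method B at 36 cycles and lowest in method A.

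Most members were carried by a single transcript in every EC group. Bmx-202, Gja4-201, Gja5-201, Gkn3-201 and Lcn2-201 held over 90% of their gene's TPM in each group. Apart from Ephb4, transcripts with a retained intron took a share of 2 members. Efnb2-203 held 13.6% of Efnb2 in acutely isolated ECs and 2.18% in WT cultures. Nr2f2-203 held 42.7% of Nr2f2 in acutely isolated ECs, 18.3% in WT cultures and 38.5% in stabilized cultures, with 0.0% to 49.8% among the WT libraries.

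The wider arterial and venous programmes were followed with lists of 22 and 18 further genes, which do not hold the members. In WT culture against acutely isolated ECs 4 of the 22 arterial genes were called higher and 5 lower, with a median log2 fold change of −0.43 beside 0.10 over all genes tested. Of all genes 13.5% were called higher and 10.2% lower in this comparison. Edn1, which encodes endothelin-1, was at 3.30 and Depp1 at 3.18, while Alpl, the tissue-nonspecific alkaline phosphatase, was at −6.64 and Nrp1, a co-receptor of VEGF, at −3.47. Of the 18 venous genes 2 were called higher and 2 lower, with a median of 0.10. The oxysterol enzyme Ch25h was at 3.24 and the mucin Emcn at 2.83, while the apelin receptor Aplnr was at −9.84 and Il1r1 at −1.71. Emcn also belongs to the general EC markers above, so it is not particular to the venous list. By contrast all 10 genes of a capillary list were called lower, with a median of −4.08, led by Car4 at −11.82 and Spock2 at −9.62. Neither the arterial nor the venous list moved in 1 direction.

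Against GFP-negative cells 15 of the 22 arterial genes were called higher in acutely isolated ECs and 1 lower (Hey2, at −2.01), 9 of 17 venous genes were higher and 0 lower, and all 10 capillary genes were higher (8.30% of all genes higher and 7.56% lower). In stabilized cultures against the same acutely isolated ECs 4 arterial genes were higher and 5 lower, 3 venous genes were higher and 4 lower, and all 10 capillary genes were lower (15.1% of all genes higher and 11.0% lower). Over all cultures 0 genes of the 3 lists were called between stabilized and WT cultures. In method A 3 arterial genes were higher and 1 lower in stabilized wells, among them the chemokine receptor Cxcr4 at 1.90, the Notch ligand Dll4 at 1.66 and Tm4sf1 at −1.06, and 1 venous gene was higher (Tmsb10 at 1.24) and 2 lower (Ackr1 at −1.85 and Icam1 at −1.20). In method B 6 arterial genes were higher and 0 lower, led by Cxcr4 at 2.70 and Sema3g at 2.34, and 1 venous gene was higher (Vcam1 at 1.40). Of all genes 5.39% were called higher and 0.918% lower in method A, and 1.08% higher and 0.280% lower in method B. Cxcr4 and Dll4 (1.93 in method B) were thus called higher in both methods, unlike any member. How many of all genes were called higher in both was not counted. Over all cultures Cxcr4 was at 1.79 (edgeR adjusted p = 0.426) and Dll4 at 0.60 (edgeR adjusted p = 0.770), and neither was called.

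Close relatives of the members were followed in the same way, in WT culture against acutely isolated ECs, where 13.5% of all genes were called higher and 10.2% lower. Of 15 other ephrins and Eph receptors tested in WT culture against acutely isolated ECs, 1 was called higher, the receptor Epha2 at 3.62, and 0 lower. Of 9 other connexins 0 were higher and 1 lower, Gjc1 at −2.48. Among 15 tested genes of the Tec kinase, nuclear receptor, Slc38, gastrokine and lipocalin families, 2 were called higher, the nuclear receptor Nr2f6 at 3.44 and the amino acid transporter Slc38a2 at 2.03, and 3 lower, led by the transporters Slc38a11 at −8.06 and Slc38a3 at −8.02. Nr2f1, the closest relative of Nr2f2, was at −3.85 (adjusted p = 0.000962) and was not called because of its low TPM.

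ATAC-seq peaks had been called by the authors in each library on its own, 31844 and 37453 in acutely isolated ECs, 33152 to 98840 in WT cultures and 79160 and 80075 in stabilized cultures. A gene start was counted as open in a library with a peak within 1 kb. Both acutely isolated libraries had a peak at the start of 7 members, where 50.9% of 21807 gene starts were open in both. All 6 WT cultures had a peak at 5, where 49.5% of starts were open in all 6, and both stabilized cultures had a peak at 6, where 57.7% were open in both. The 5 starts open in all 10 libraries (background 47.0%) were those of Efnb2, Gja4, Gja5, Ephb4 and Lcn2, so that Gja4 kept an open start in culture while its transcripts fell. Bmx lacked a peak in WT replicate 2, the culture with the fewest peaks, and in no other library. The start of Gkn3 was open in both acutely isolated libraries, at a fold enrichment over local background of 5.08 and 3.77, and in 0 of 8 cultures.

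The starts of Nr2f2 and Slc38a5 had no peak in any library. When any start of a protein-coding transcript was used, Nr2f2 was open in all 10 libraries and 6 members were (background 50.3%). With the RefSeq start 4 members were open in all 10 (background 50.0%), because that of Gja5 lies 127709 bases from the annotated gene start and had no peak in any library. The peak at the annotated gene start of Gja5 lies within 1 kb of the start of the neighbouring gene Gpr89 and may not mark Gja5, whose expressed transcript Gja5-201 begins at the RefSeq start.

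Within the gene bodies and 10 kb on both sides, the merged peaks of the 10 libraries gave 71 regions at 8 members, and 0 at Slc38a5. Of the 71 regions 5 (7.04%) were open in both acutely isolated libraries and in no culture, where 2.84% of all 126307 merged regions were. Another 5 (7.04%) were open in all 8 cultures and in neither acutely isolated library (background 8.01%), and 11 (15.5%) were open in all 10 libraries (background 13.4%). The other 50 were open in some libraries of a group only.

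The regions lost in culture lay at Gkn3, Bmx, Gja4 and Ephb4. That of Bmx (chrX:164256014-164256566) lies in an intron 1903 bases into the gene, with a fold enrichment of 10.2 and 6.69, and it was absent in method A and method B cultures alike although only method B cultures had low Bmx transcripts in RNA-seq. Ephb4 lost a region upstream of its start (chr5:137348647-137349134, fold enrichment 3.32 and 4.10) and an intronic region (chr5:137352082-137352325, 3.48 and 3.09), while its start stayed occupied by a peak in all 10 libraries. Slc38a5 had 2 regions of this kind just beyond the 10 kb limit, at chrX:8257412-8258422 (7.14 and 8.29) and chrX:8260663-8261096 (5.84 and 5.08), at −13216 and −10254 bases from its start.

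The regions gained in culture lay at Efnb2, Gja4, Gja5 and Nr2f2. A gain means that no peak was called in either acutely isolated library. These libraries held 37453 and 31844 peaks against up to 98840 in a culture, and the part of this difference in the gains was not tested. The intronic region of Efnb2 (chr8:8643977-8644996) had a fold enrichment of 8.56 to 13.4 over the 8 cultures. The region downstream of Gja4 (chr4:127308019-127308541) had 6.63 to 17.6, at a gene whose transcripts were lower in culture. Gja5 gained a region in an intron of the annotated gene, upstream of its expressed transcript (chr3:97005932-97006689, 5.99 to 13.1). It also gained a region over an exon (chr3:97075922-97077204, 5.78 to 13.9). In protein-coding TPM, Gja5 was higher in every culture than in either acutely isolated library. By counts it was called higher in stabilized cultures and not in WT cultures, and how many of all genes show such a separation was not counted. The region of Nr2f2 (chr7:70358813-70359226) was weaker, at 2.91 to 6.24.

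**Figure D5:**
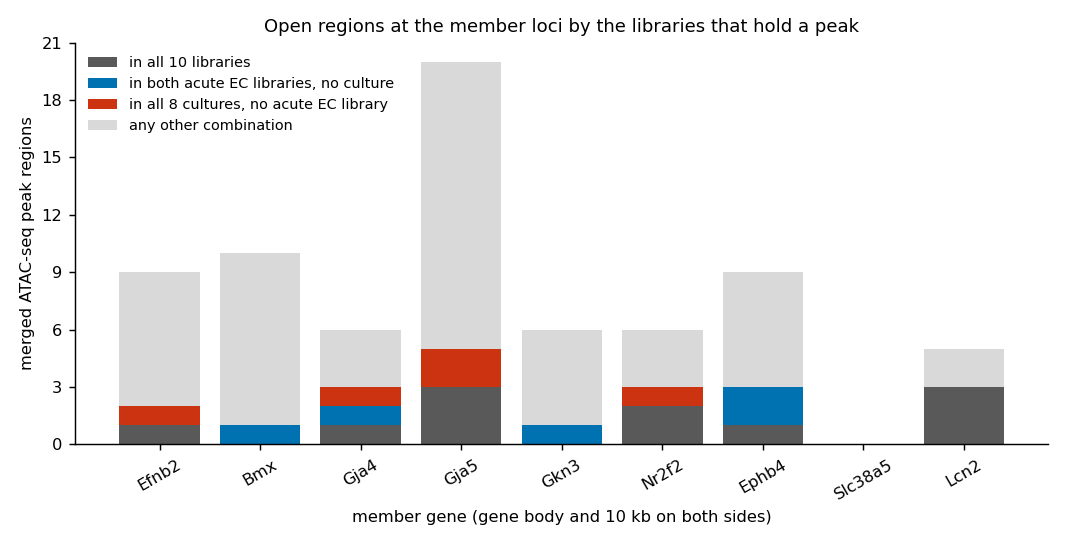
Number of merged ATAC-seq peak regions within each member's gene body and 10 kb on both sides, stacked by the libraries that hold a peak. Regions open only in acutely isolated ECs lay at Bmx, Gja4, Gkn3 and Ephb4, regions open only in cultures at Efnb2, Gja4, Gja5 and Nr2f2, and no region was found at Slc38a5 within this distance.

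The regions lost and gained in culture differed in the motifs of their 300-base windows. All 5 windows of regions gained in culture held TGANTCA, which 52.8% of the windows of all such regions held, against 5.89% of those open only in acutely isolated ECs, 12.8% of those open in all libraries and 27.6% of all regions. None of the 7 windows lost in culture held it, the 2 of Slc38a5 included. CTTTGTT was found in the Bmx window and in the culture window of Gja4 (9.10% of all regions), and TGGGAA in the windows of the Ephb4 intron, Gkn3 and the Slc38a5 region nearer to the gene (27.9%). In the 250 bases before the RefSeq starts of the 9 members TGGGAA was found in 2, Bmx and Slc38a5 (21.6% of 32851 promoters), CTTTGTT in 1, Bmx (5.03%), CTTTGAT in 1, Nr2f2 (3.21%), CACGTG in 1, Slc38a5 (6.02%), and TGANTCA in 0 (6.75%). The 250 bases before the Gkn3 start held none of the 5 motifs, since the TGGGAA of its window lies past the start. A match describes the letters alone.

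Among 11601 protein-coding genes with a deposited TPM of at least 5 in some library, the 2 nearest to each member in pattern were found by the root mean square difference of centred log2(TPM + 1) over the 14 libraries, which share the scale of each library. Ephb4 was closest to Thbd, which encodes thrombomodulin (difference 0.21, r = 0.989), and to Casp8 (0.29). Gkn3 was closest to Degs2 (0.27, r = 0.990) and Srarp (0.32), and Slc38a5 to Degs2 (0.57) and Slc39a10 (0.58). Degs2, at 50.1 TPM in acutely isolated ECs and 0.481 in WT cultures, was thus the nearest gene to both members, the highest arterial and venous ones by TPM in acutely isolated ECs. Gja5 was closest to Pdgfd (0.38) and Sult1a1 (0.40), Bmx to Gbp2 (0.42) and Trim30a (0.42), Gja4 to Rnf220 (0.30) and Exosc7 (0.44), and Efnb2 to 2900026A02Rik (0.28) and Abca3 (0.36). Nr2f2 was closest to Farp1 (0.26) and Ubqln2 (0.33), and Lcn2 to Klhl4 (0.35) and Nid2 (0.39).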

How the data were processed

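The authors quantified RNA-seq reads with Salmon 0.14.0 against GENCODE M21 (GRCm38), and the deposited values are estimated counts and TPM for each of 140198 transcripts. The authors aligned ATAC-seq reads with HISAT2 2.1.0, MACS2 2.1.2 served for peak calling on single libraries, and the deposited peak files give fold enrichment and the −log10 of p and q. Counts and TPM were summed by gene identifier, and counts were rounded. For the 27 protein-coding symbols with more than 1 identifier, only the identifier with the highest summed TPM was kept. Protein-coding genes were tested with the quasi-likelihood test of edgeR 4.0.16 (TMM scaling) in R 4.3.3, with Benjamini-Hochberg adjustment over all genes tested, and every adjusted p is from this test unless limma 3.58.1 or DESeq2 1.42.0 is named. The scripts were tested on simulated data. Counting intervals cover counting error only.

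The members and gene lists were chosen with earlier results of these data known. Besides all 9 members, the text names at most the 2 called genes with the largest change in each direction per list and comparison, the 2 genes nearest in pattern to each member, and transcripts with at least 10% of a gene's TPM. Dll4 in method B, Nr2f1 and Gpr89 were named after their values were seen. Replicate numbers were taken to pair the stabilized and WT cultures, since the deviations of the 4 same-numbered pairs correlated at 0.275 to 0.335 (0.259 to 0.334 with the nearest other number). This pairing is uncertain. Replicates 1 (0.275 against 0.321) and 4 (0.315 against 0.334) correlated more with another number, and the labels name no shared preparation. Wells of an experiment differed beyond counting noise, so none was a duplicate. Alternatives covered scaling, filters, tool, transcript length, pseudocount, the replicate block and leaving out each library. Cerebrum-only samples were not used here.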

Additional observations from a re-analysis of the deposited data

Results flagged for a closer look

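The effect of stabilization differed between the 2 isolation methods for 6 of the 9 members by a test of the difference itself, in edgeR over 8 wells. The effect in method B minus that in method A was −2.31 on the log2 scale for Efnb2 (SE 0.253, adjusted p = 0.000256) and −1.63 for Nr2f2 (adjusted p = 0.00490). It was 2.37 for Gja5 (SE 0.257, adjusted p = 0.000245), 1.92 for Bmx (adjusted p = 0.000277), 2.1 for Slc38a5 (adjusted p = 0.00965) and 1.16 for Lcn2 (adjusted p = 0.000460). Such a difference was found for 49.6% of all genes tested. Method, experiment and the mouse line of the WT wells cannot be told apart here. Of 18 groups of 4 or more libraries examined for a single library far from the others, 0 held one. The rate of about 1 in 20 that chance gives holds for independent libraries. These groups are made of pairs of wells from the same experiment, so a single far library could hardly appear, and no conclusion is drawn.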

How the results depend on the processing

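Of 913 values recomputed under an alternative, 812 kept their sign and side of the threshold (for counts, stayed within 1.5 times), 25 lost and 30 gained a call and 3 counts moved. Another 37 changed sign without a call on either side, 14 of them Ephb4 and 6 Gja5 in stabilized against WT culture, 5 Efnb2 in WT culture and 3 Efnb2 in stabilized culture against acutely isolated ECs. The 6 called values that changed sign all belonged to Ephb4. In WT culture against acutely isolated ECs its log2 fold change was 0.4061 with limma on log2(TPM + 1), 0.4205 on log2(TPM + 0.1) and 0.1746 on log2(protein-coding TPM + 1), and in stabilized culture it was 0.1561, 0.161 and 0.0688 in the same order. The count of members called in WT culture against acutely isolated ECs went from 4 to 2 with limma on log2(TPM + 1) and to 2 on log2(TPM + 0.1), and that in method A from 1 to 2 with library size scaling. Over the alternatives as a whole the counts ran from 2 to 6 in WT culture against acutely isolated ECs, 3 to 6 against GFP-negative cells and 4 to 6 in stabilized culture against acutely isolated ECs. Gkn3 and Slc38a5 were called in all 22 alternatives for WT culture, Gja4 in 20 and Ephb4 in 11. Leaving out 1 library gave 3 to 4, 3 to 5 and 4 to 6 members in these comparisons, and 0 to 0 in stabilized against WT culture.

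The fits with the replicate number as a block kept only libraries whose number occurs in both groups. Against acutely isolated ECs these were replicates 1 and 2 of the cultures, all from method A. Between stabilized and WT cultures they were replicates 1 to 4, and WT replicates 3 and 4 came from another facility with longer reads. In these fits 6 members were called in WT culture and 5 in stabilized culture against acutely isolated ECs. In acutely isolated ECs against GFP-negative cells 4 were called, and in stabilized against WT culture 0. The counts that involve cultures thus differ from the main ones in libraries as well as in the block. Between stabilized and WT cultures, where the numbers were taken to pair the samples, no member was called with the block or without it. No label states such a pairing. In the other comparisons same-numbered libraries correlated at −0.0363 to 0.0641. With 2 acutely isolated libraries the precision rests on their own spread, and counts of 1 to 12 limit Gkn3 in culture. The cause of these changes was not tested.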
